A study of Homo sapiens with 6 samples.

Results

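Cystatins and cathepsins were followed as 10 genes in HSC-3, an established line of human tongue squamous cell carcinoma. The genes were taken by name: the cystatins CST3, CST6, CSTA and CSTB, and the cathepsins CTSB, CTSC, CTSD, CTSH, CTSL and CTSZ. The choice was made with earlier results of these data known. The 10 genes have 22 probe sets on the array, among 19775 genes with a probe set of a single gene symbol. Of the 22 probe sets, 19 were bright enough to be tested, and these cover all 10 genes.

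The series holds 6 Affymetrix arrays. The titles label 3 as TAT-2, the HSC-3 line made to overexpress trypsin-2, and 3 as vector, HSC-3 carrying a control vector and described as lacking trypsin-2. Both lines were grown for 48 h in the same medium with serum and hydrocortisone, and then detached with trypsin and frozen. Each array used 2 µg of total RNA. The promoter of the construct, and whether each line was 1 clone or a pool, are not given in the sources used here. Nothing in the labels says that replicates 1 to 3 were separate cultures, so p-values measure the spread between these arrays, which may be technical.

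Cathepsins are proteases that work mainly in lysosomes. CTSB, CTSC, CTSH, CTSL and CTSZ use a cysteine in the active site, and CTSD an aspartate. Cystatins block the cysteine cathepsins: CST3 and CST6 are secreted, while CSTA and CSTB, also called stefins, stay in the cytosol. In stratified epithelium CST6 restrains CTSL, CTSV and legumain during formation of the cornified layer, and CSTA is part of the cornified envelope.

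Several facts of the arrays bear on every value below. Both probe sets of PRSS2 alone, the gene of trypsin-2, went against the labels. The brighter gave 20.4, 13.8 and 14.6 on the arrays labelled TAT-2 and 19.6, 80.8 and 83.2 on those labelled vector (exact two-sided permutation p = 0.2, where 0.1 is the smallest possible). The other gave 19.9, 17.9 and 19.5 on TAT-2 and 22.6, 38.0 and 54.5 on vector arrays, without overlap (exact two-sided permutation p = 0.1). A probe set that PRSS2 shares with PRSS1 lay below the filter, at 2.67 ± 0.771 and 1.07 ± 0.303 (SD, n = 3 each), and so higher on TAT-2. Whether labels were exchanged, or these probe sets do not read the construct, was not tested. Every direction therefore rests on the labels alone. Both replicate 1 arrays stood apart, where the 3' probe set of ACTB exceeded the 5' one by 0.214 and 0.251 on the log2 scale, against 0.462 to 0.588 on the other 4. For GAPDH this ratio was 0.0322 and 0.0898 on the replicate 1 arrays and -0.00497 to 0.0214 on the other 4, a smaller shift the opposite way. Of 7 squamous markers listed, 4 (KRT5, KRT14, SFN, DSG3) have a probe set of a single gene symbol, and all 4 were tested. Their summed signals were 17863 to 21227 on TAT-2 and 15182 to 22592 on vector arrays. KRT6A, KRT17 and TP63 have no such probe set and were not read. Of the leukocyte markers, PTPRC, CD3E and LYZ lay below the filter, and of the fibroblast markers COL1A2, COL3A1, LUM and PDGFRB did. Among leukocyte markers above it, CTSS had means of 94.5 on TAT-2 and 132 on vector arrays. CD14 had 49.3 and 23.3, and CSF1R 20.2 and 20.6. CTSS and CD14 thus went opposite ways within the leukocyte sum, and neither limma fit called them. The summed signals were 114 to 231 on TAT-2 and 164 to 223 on vector arrays for 6 leukocyte markers, and 131 to 137 and 112 to 136 for 6 fibroblast markers, each gene read from its brightest probe set. A second tested probe set of COL1A1 went the other way, at 32.3, 49.8 and 56.5 on TAT-2 and 93.6, 119.5 and 125 on vector arrays. It fell by 1.06 on the log2 scale with the block (limma adjusted p = 0.000881), about as far as CST6 below, and its part in the results was not tested.

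Of the 10 genes, CST6 and CTSH were lower on the arrays labelled TAT-2, 2.12-fold and 1.84-fold on the scale of log2(signal + 16). The lysosomal proteases CTSB, CTSC and CTSL and the stefins CSTA and CSTB lay close to 0. CST3, CTSZ and CTSD were lower in each replicate number without passing the test, CTSD by only 0.08 on the log2 scale. Of all tested probe sets, 20.5% were lower in each number. In limma with the replicate number as a block, 3 of the 19 probe sets, from the genes CST6 and CTSH, fell (adjusted p under 0.05) and 0 rose. Of all 27307 tested probe sets, 2.66% fell and 2.55% rose in that fit. As the genes were chosen with earlier results known, the shares here and below give scale and do not test the members. Without the block limma called 0 of the 19 after adjustment, against 0.0293% of all tested probe sets. At an unadjusted p under 0.05 it found 3 (all lower), against 7.86% of all, and the block raised this to 6, against 18.5%.

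These calls needed a variance prior that follows signal. With a constant prior, limma with the block called 0 of the 19 and 0 of all tested probe sets. With all 6 arrays and no block the adjusted p of CST6 was 0.0564 and that of CTSH 0.104. Leaving out TAT-2 replicate 1 alone brought CST6 to 0.0439, and leaving out each other array alone took it up, to between 0.135 and 0.298. When both replicate 1 arrays were left out and no block was used, the adjusted p of CST6 and CTSH became 0.0101 and 0.0121. That setting was chosen after seeing the data, and it called 1.08% of all tested probe sets.

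**Figure D1:**
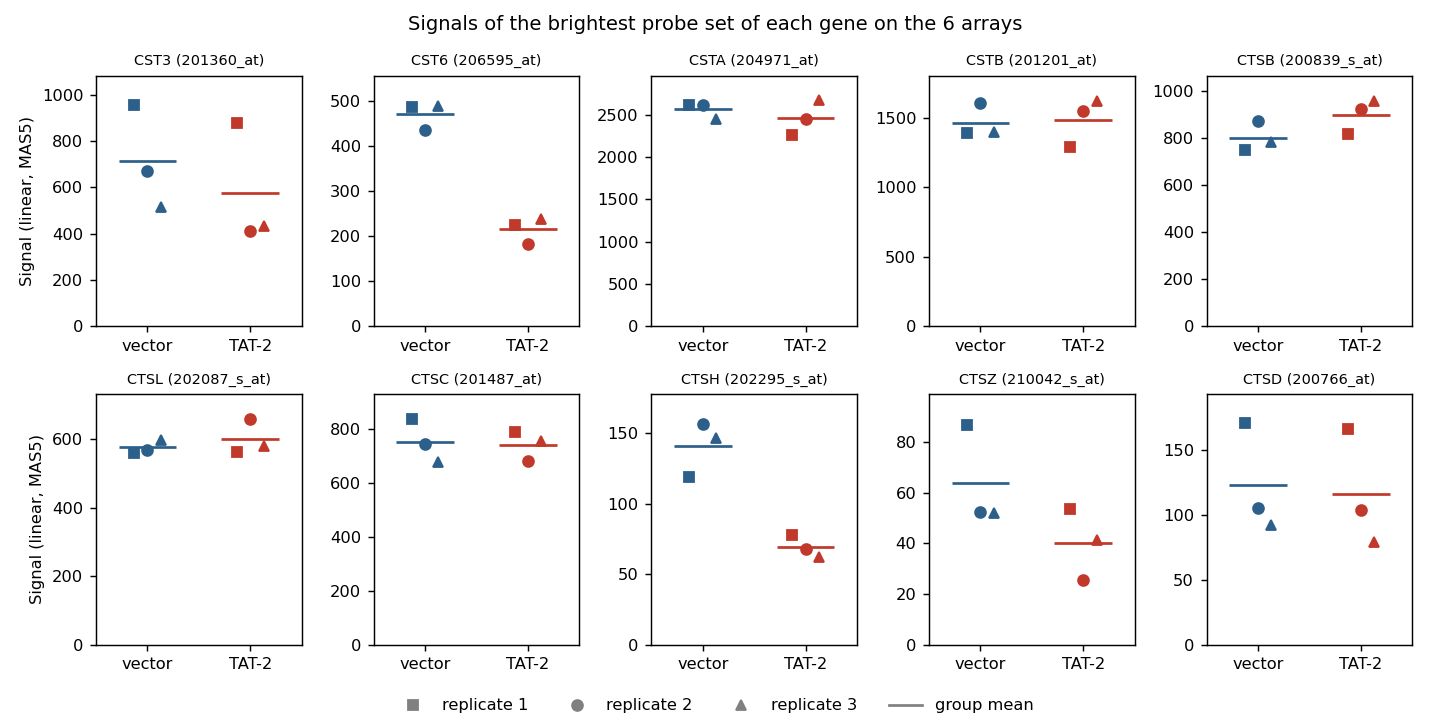
Linear signal on each of the 6 arrays (y axis, from 0) for the brightest probe set of each gene, by group (x axis), with a marker shape for each replicate number and a line at the group mean. For CST6 and CTSH the groups do not overlap, and for CST3 and CTSD the replicate 1 arrays are the highest of both groups.

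CST6, the secreted inhibitor also called cystatin M/E, gave 224, 182 and 238 on TAT-2 replicates 1, 2 and 3, against 487, 435 and 490 on vector replicates 1, 2 and 3. Every TAT-2 array was well below every vector array, and the spread within each group was small beside the gap. Its mean was 215 ± 29.2 on TAT-2 and 471 ± 31.2 on vector arrays (SD, n = 3 each), which gave a log2 difference of -1.08 ± 0.13 (SE), or -1.08 ± 0.08 with the block (limma adjusted p = 5.08e-05). Within replicate numbers 1, 2 and 3 it was -1.07, -1.19 and -0.99, so the difference was as large in replicate 1 as in the others.

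The second CST6 probe set was dimmer and gave 37.0, 33.4 and 23.1 on TAT-2 against 65.3, 47.7 and 62.3 on vector arrays. It too had no overlap between groups. Its log2 difference was -0.66 ± 0.17 with the block (SE, limma adjusted p = 0.0438), and its differences by replicate number spread from -0.37 in replicate 2 to -1.002 in replicate 3. This call was lost with the block when replicate 1, 2 or 3 was left out of both groups (adjusted p = 0.136, 0.0671 and 0.134), with no filter (adjusted p = 0.184) and with a pseudocount of 1 (adjusted p = 0.0526). The brighter CST6 probe set kept its call under all of these.

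CTSH, a cathepsin that works mainly as an aminopeptidase, gave 78.0, 67.6 and 61.9 on TAT-2 and 119, 157 and 147 on vector arrays. The groups were apart, and the smallest gap was between the replicate 1 arrays. Its mean was 69.2 ± 8.17 on TAT-2 and 141 ± 19.6 on vector arrays (SD, n = 3 each), which gave a log2 difference of -0.88 ± 0.13 with the block (SE, limma adjusted p = 0.00368). By replicate number it was -0.52, -1.05 and -1.06, and so weakest in replicate 1. With the block and replicate 1, 2 or 3 left out of both groups, the call was kept, with adjusted p of 0.00118, 0.0280 and 0.00490. CTSH has this single probe set on the array.

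The promoter window of CTSH is shown because of the members it is the 1 gene with a block call whose sequence is in the RefSeq promoter table. These are the 250 bases before the start of transcription, 5′ to 3′ on the minus strand, at chr15:78945047-78945296 (GRCh38.p14).
CTSH: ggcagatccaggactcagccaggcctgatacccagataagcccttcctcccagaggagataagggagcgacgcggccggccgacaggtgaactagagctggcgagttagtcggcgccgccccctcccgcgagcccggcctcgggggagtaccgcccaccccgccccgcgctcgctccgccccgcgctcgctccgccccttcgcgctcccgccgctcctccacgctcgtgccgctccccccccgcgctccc
The whole window of 300 bases has a G and C content of 73.3%. It holds no CACGTG, the core of the E-box read by TFEB and TFE3 in lysosomal genes, and no TGANTCA, the site of AP-1, on either strand. Both motifs read the same on the 2 strands, and they do not overlap each other.

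CST3, cystatin C, the secreted inhibitor found in most body fluids, gave 879, 413 and 432 on TAT-2 and 957, 670 and 514 on vector arrays. Both replicate 1 arrays were the brightest of their group, and the groups overlapped. Its mean was 575 ± 264 on TAT-2 and 714 ± 224 on vector arrays (SD, n = 3 each), which gave a log2 difference of -0.35 ± 0.31 (SE), and -0.35 ± 0.10 with the block (limma adjusted p = 0.0653). All 3 replicate numbers were lower on TAT-2, by -0.12, -0.68 and -0.24. The size hung on single arrays. Without the block it was -0.12 without vector replicate 1, -0.16 without TAT-2 replicate 2, -0.19 without TAT-2 replicate 3, -0.55 without vector replicate 3 and -0.69 without TAT-2 replicate 1. The blocked fit gave -0.18 without replicate 2 of both groups. It called CST3 lower when replicate 1 or replicate 3 was left out of both groups (adjusted p = 0.0336 and 0.0344) but not when replicate 2 was left out (adjusted p = 0.390). Its other probe sets lay below the filter, with means of 12.1 and 15.2 for the brighter and 8.39 and 12.5 for the dimmer, on TAT-2 and vector arrays.

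CTSZ, a cathepsin that works as a carboxypeptidase, gave 53.8, 25.6 and 41.2 on TAT-2 and 87.0, 52.4 and 52.1 on vector arrays. Only TAT-2 replicate 1 reached the range of the vector arrays. The log2 difference was -0.51 ± 0.15 with the block (SE, limma adjusted p = 0.0829), with -0.56, -0.72 and -0.25 in replicates 1, 2 and 3. Without the block it was -0.31 without TAT-2 replicate 2 and -0.31 without vector replicate 1. With the block and replicate 3 left out of both groups it was called lower (log2 difference -0.64, adjusted p = 0.0359). The second CTSZ probe set lay below the filter, at 8.69 ± 0.505 on TAT-2 and 12.1 ± 1.99 on vector arrays (SD, n = 3 each), without overlap.

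CTSD, the aspartic cathepsin, gave 166, 104 and 78.8 on TAT-2 and 171, 105 and 92.4 on vector arrays. Same-numbered arrays lay side by side, with log2 differences of -0.04, -0.01 and -0.19, while the replicate numbers differed widely. The log2 difference between the groups was -0.08, with a 95% interval of -0.72 to 0.55 without the block and -0.31 to 0.15 with it. No change could be told at this spread, and the unblocked interval still holds differences as large as that of CST3.

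Replicate 1 arrays were brighter than the other 4 for CST3 by 0.86, for CTSD by 0.74 and for CTSZ by 0.55 on the log2 scale, over both groups together. For CST6 and CTSH this shift was 0.09 and -0.05 on the brighter probe sets. The 3' to 5' ratio of ACTB given above moved with the same arrays, while that of GAPDH moved less and the opposite way. The part of either in these values was not tested.

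The CTSD promoter is shown as the only one with a CACGTG among the 6 members in the promoter table (CST3, CTSC, CTSD, CTSH, CTSL and CTSZ). The 250 bases before the start, on the minus strand, are at chr11:1763928-1764177 (GRCh38.p14, RefSeq), with CACGTG in capitals.
CTSD: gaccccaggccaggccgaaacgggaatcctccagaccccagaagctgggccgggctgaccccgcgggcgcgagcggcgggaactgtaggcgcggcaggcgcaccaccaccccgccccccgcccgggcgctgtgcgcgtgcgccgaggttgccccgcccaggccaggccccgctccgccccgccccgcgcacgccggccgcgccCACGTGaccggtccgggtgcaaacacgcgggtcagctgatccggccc
The match starts 47 bases before the start of transcription. In all, 7.43% of 27305 promoter windows of 300 bases hold CACGTG and 7.76% hold TGANTCA, which was found in 0 of the 6. Among the other cathepsins, lysosomal membrane and sorting genes and lysosomal hydrolases described below, 11 of 29 windows (37.9%) hold CACGTG. These matches describe the letters only.

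CTSB, a lysosomal protease that is also secreted by carcinoma cells, has 5 tested probe sets. Its brightest gave 818, 927 and 959 on TAT-2 and 750, 873 and 784 on vector arrays, with overlap. That probe set was higher on TAT-2 in all 3 replicate numbers, by 0.12, 0.08 and 0.29, a log2 difference of 0.16 ± 0.07 with the block (SE, limma adjusted p = 0.222, unadjusted p = 0.0343). The next brightest gave 576, 566 and 490 on TAT-2 and 492, 495 and 493 on vector arrays, where TAT-2 replicate 3 lay just below the vector arrays and the other TAT-2 arrays above them. Its log2 difference was 0.13, and the other 3 were at -0.03, 0.07 and 0.09. Neither fit called any of the 5, and the widest blocked 95% interval ran from -0.20 to 0.33.

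CTSL, a lysosomal endopeptidase and a target of CST6, gave 563, 660 and 579 on TAT-2 and 561, 568 and 599 on vector arrays. The arrays of both groups were mixed, apart from TAT-2 replicate 2 at the top. The log2 difference was 0.06, with a 95% interval of -0.11 to 0.22 with the block, so a change of the size seen for CST6 or CTSH lay outside it.

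CTSC, which activates serine proteases of immune cells by trimming them, has 4 tested probe sets. The brightest gave 792, 683 and 758 on TAT-2 and 838, 746 and 679 on vector arrays, fully mixed. The log2 differences of the 3 brighter probe sets were -0.02, -0.01 and -0.03, with blocked 95% intervals between -0.21 and 0.15. The dimmest, at 31.7 ± 7.86 against 40.0 ± 2.43 (SD, n = 3 each), was at -0.25 with a blocked interval of -0.62 to 0.13.

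CSTA, stefin A, gave 2256, 2457 and 2672 on TAT-2 and 2618, 2622 and 2455 on vector arrays. The highest and the lowest array were both labelled TAT-2. The log2 difference was -0.06, with a 95% interval of -0.22 to 0.10 with the block. CSTB, stefin B, gave 1290, 1554 and 1624 on TAT-2 and 1393, 1609 and 1402 on vector arrays, again mixed. Its difference was 0.02, with an interval of -0.15 to 0.18 with the block, and a dim second probe set was at -0.11 with an interval of -0.54 to 0.32.

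**Figure D2:**
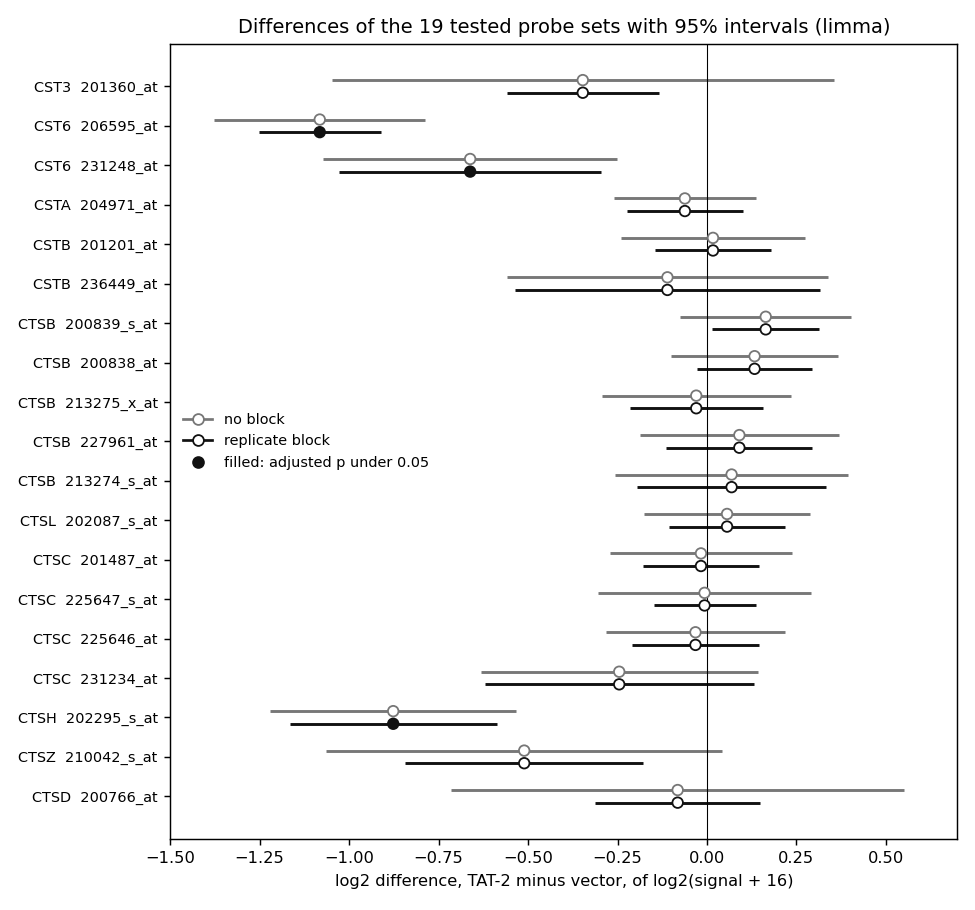
Log2 difference, TAT-2 minus vector (x axis), with 95% intervals from limma, for the 19 tested probe sets (y axis), without the block in grey and with it in black; filled points have an adjusted p under 0.05. Both CST6 probe sets and CTSH are filled with the block and none without it, and 13 of the 19 points lie within 0.2 of 0.

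Over the 19 tested probe sets the log2 differences ran from -1.08 to 0.16, with a median of -0.03 against -0.01 for all tested probe sets. Those below 0 numbered 13 of 19, against 52.3% of all. In 3 of the 19, both of CST6 and that of CTSH, every TAT-2 array was below every vector array, a state of 7.35% of all tested probe sets. The opposite state was found in 0 of the 19, against 6.73% of all. Lower values in all 3 replicate numbers were found in 6 of the 19, against 20.5% of all: these were CST3, CST6 on both probe sets, CTSH, CTSZ and CTSD. By brightest probe set, the 4 cystatins had a median of -0.20 and the 6 cathepsins one of -0.05.

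**Figure D3:**
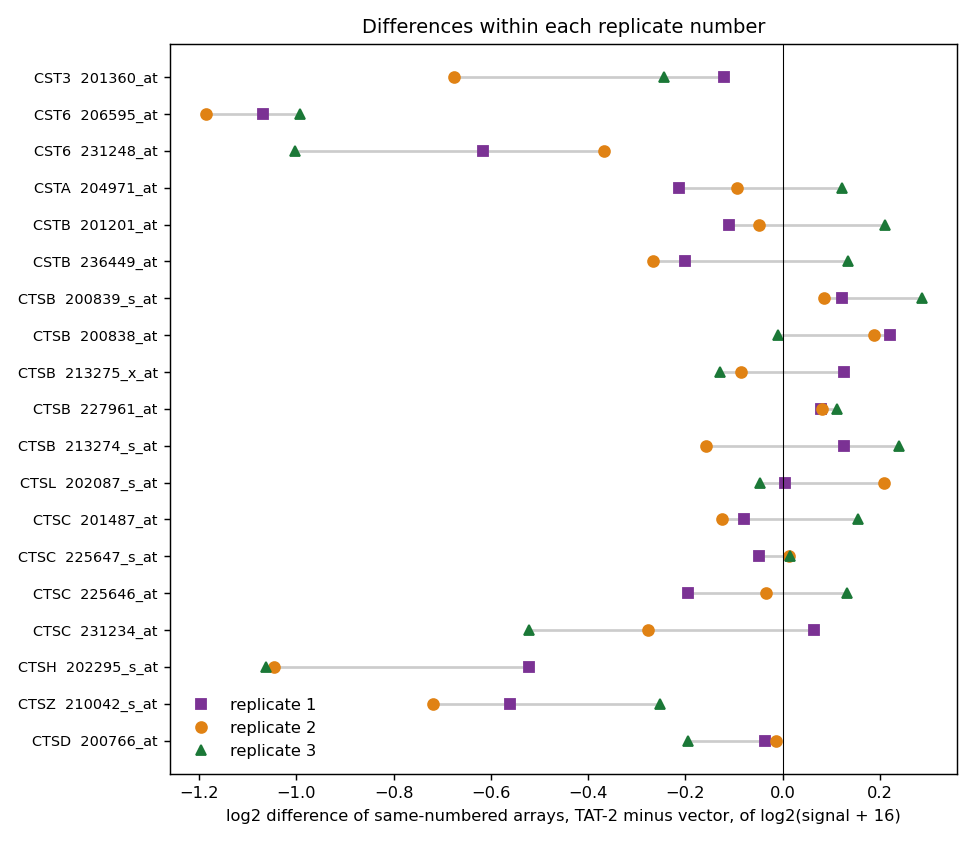
Log2 difference between the TAT-2 and vector arrays of the same number (x axis), marked for replicates 1, 2 and 3, for the 19 tested probe sets (y axis). CST6 on its brighter probe set keeps the 3 numbers between -1.19 and -0.99, while CTSH has -0.52 in replicate 1 and -1.05 and -1.06 in the others.

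The protease targets of CST6 were read beside it. CTSV, a cathepsin of skin and thymus close to CTSL, gave 722, 626 and 704 on TAT-2 and 649, 509 and 514 on vector arrays, with overlap at 1 pair of arrays. It rose with the block, by 0.30 ± 0.07 (log2, SE, limma adjusted p = 0.0439), and was no longer called with replicate 1 as a batch term (adjusted p = 0.0529). In the blocked fit CTSV also lost its call with no filter, after centring the array medians and with a pseudocount of 1. The same held without replicate 2 or 3 of both groups. LGMN, legumain, chosen after its values were seen, was at -0.08 with a blocked 95% interval of -0.26 to 0.09. Beside these stand -1.08 for CST6 and 0.06 for CTSL.

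Among 6 tested genes of the other cathepsins, CTSV rose and CTSA, a serine carboxypeptidase that protects lysosomal glycosidases, fell with the block (-0.35 ± 0.07, SE, limma adjusted p = 0.0180). The shares of all 12151 tested genes were 3.5% for rises and 3.46% for falls. CTSA gave 506, 418 and 348 on TAT-2 and 598, 552 and 472 on vector arrays, overlapping, and lost its call with replicate 1 as a batch term (adjusted p = 0.0581). In the blocked fit CTSA also lost its call with no filter, after centring the array medians and without replicate 2 or 3 of both groups. The median of the 6 was 0.23. CTSS, named after its values were seen, had the largest change of the 6 but no call in either fit. Its 3 tested probe sets were lower on TAT-2 in every replicate number, at -0.45, -0.49 and -0.40. With the block their limma adjusted p was 0.0563, 0.0582 and 0.173, and on the second the groups did not overlap. Of the 3 tested genes of other cystatins and cystatin-fold proteins none passed either fit: HRG, a plasma protein with cystatin domains, was at 0.20 ± 0.20 (limma adjusted p = 0.682) and CST5 at -0.20 ± 0.20 (SE, limma adjusted p = 0.688), both with the block. In limma, this list had 0 of 3 genes at an unadjusted p under 0.05 in either fit, against 22.3% of all tested genes with the block and 9.38% without.

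Among 8 tested genes of other proteases and inhibitors around this network neither limma fit called any (0 of 8) on its brightest probe set. The blocked one had 2 of 8 at an unadjusted p under 0.05, against 22.3% of all tested genes, and the other 0, against 9.38%. PSAP, the saposin precursor, was at 0.26 ± 0.07 (SE, limma adjusted p = 0.0567) on that probe set and CAST, calpastatin, the inhibitor of calpains, at 0.20 ± 0.06 (SE, limma adjusted p = 0.0978) with the block. The second PSAP probe set, at 954, 904 and 775 on TAT-2 and 767, 752 and 606 on vector arrays, rose by 0.31 with the block (limma adjusted p = 0.0195, but 0.0855 with replicate 1 as a batch term).

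Lysosomal genes went both ways. FUCA1, alpha-fucosidase, gave 117, 81.2 and 88.5 on TAT-2 and 210, 168 and 164 on vector arrays, without overlap, and fell by 0.82 on the log2 scale (limma adjusted p = 0.00100 with the block). LIPA, lysosomal acid lipase, gave 937, 1298 and 1183 on TAT-2 and 617, 901 and 880 on vector arrays, also without overlap, and rose by 0.51 (limma adjusted p = 0.00160 with the block). NEU1, a sialidase that needs CTSA for its stability, rose by 0.34 with the block (limma adjusted p = 0.0415). In the blocked fit NEU1 lost its call when replicate 1, 2 or 3 was left out of both groups, and with no filter. After centring the array medians neither NEU1 nor LIPA was called with the block, while FUCA1 was. FUCA1, LIPA and NEU1 were the 3 called with the block on all 6 arrays among 12 tested hydrolases, whose median was 0.02. Of all tested genes, 3.5% rose and 3.46% fell in that fit.

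Of 17 tested genes of lysosomal sorting and membrane, NPC1, the cholesterol exporter, fell by 0.36 with the block (limma adjusted p = 0.0367, but 0.0710 with replicate 1 as a batch term). In the blocked fit NPC1 also lost its call without replicate 1, 2 or 3 of both groups, with no filter and after centring the array medians. The median of the 17 was -0.04, and 3.46% of all tested genes fell with the block. Of 3 tested regulators, TFE3, a transcription factor of lysosomal genes, gave 299, 216 and 283 on TAT-2 against 390, 358 and 326 on vector arrays and fell by 0.42 with the block (limma adjusted p = 0.0307). Of its 4 tested probe sets only this one was called. The others were at -0.30, -0.30 and -0.20 (limma adjusted p = 0.209, 0.651 and 0.652 with the block). In the blocked fit TFE3 lost its call without replicate 1 or 2 of both groups, with no filter and after centring the array medians. In the 6 lists together, the blocked fit called 3 of 49 tested genes higher and 4 lower, and the median of the 49 was -0.03. PSAP is the 1 further gene of the 49 called on a dimmer probe set. With replicate 1, 2 or 3 left out of both groups the blocked fit called 4, 2 and 3 of the 49, against 3.98%, 3.37% and 6.58% of all genes. After centring the array medians it called 1, against 2.78%, where the fit on all 6 arrays called 6.96%. Without the block limma called 0 of the 49, against 0.0576% of all genes. At an unadjusted p under 0.05 there were 6 of 49 without the block and 13 of 49 with it, against 9.38% and 22.3% of all genes. The groups did not overlap in 3 of 49 with TAT-2 lower and in 6 of 49 with TAT-2 higher, against 7.83% and 7.87% of all genes.

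**Figure D4:**
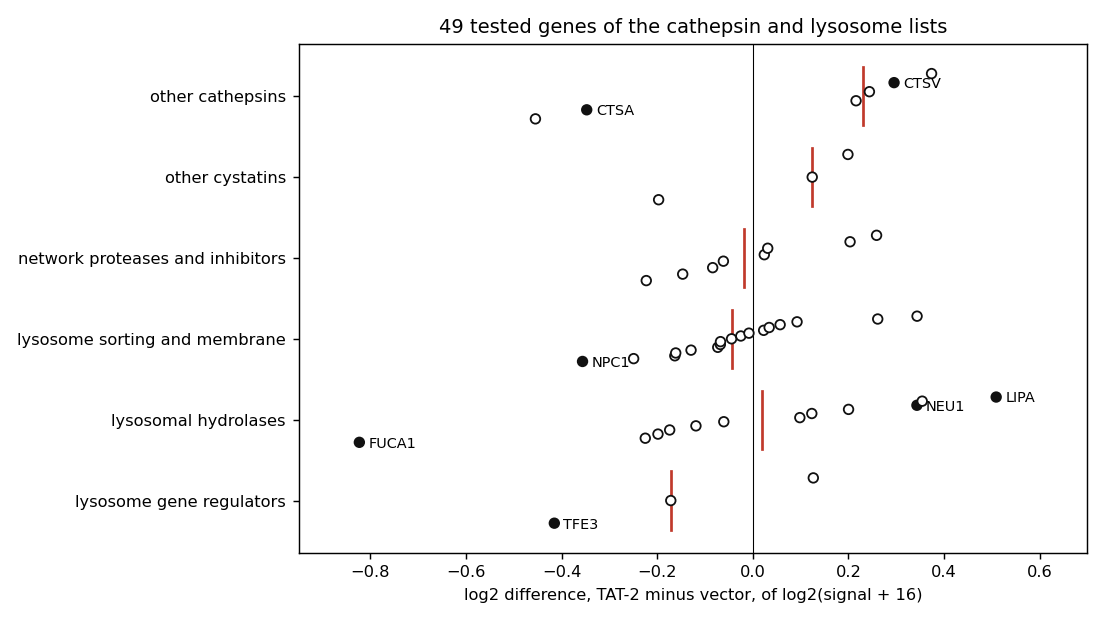
Log2 difference, TAT-2 minus vector (x axis), of the 49 tested genes of 6 lists (y axis), 1 point per gene, filled and named where the blocked fit gave an adjusted p under 0.05, with a red line at each list's median. The 7 named genes lie on both sides of 0, from FUCA1 at -0.82 to LIPA at 0.51.

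CST6 lies on chromosome 11 among genes that were also lower on TAT-2 arrays. Of its 10 nearest tested genes, 5 on each side, all 10 were below 0, against 50.5% of all tested genes, with log2 differences from -0.36 to -0.07 and a median of -0.25. With the block, EIF1AD (-0.36, limma adjusted p = 0.0147), BANF1, a chromatin-binding protein (-0.26, adjusted p = 0.0400), and SF3B2, a splicing factor (-0.36, adjusted p = 0.0213), fell, as 3.46% of all tested genes did. The difference of CST6 was the largest of the 11. Of the 10 nearest tested genes of CTSH on chromosome 15, 4 were below 0, and their range was -0.15 to 0.34. Limma with the block called 0 of them, with 0 at an unadjusted p under 0.05 in that fit, against 22.3% of all tested genes.

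**Figure D5:**
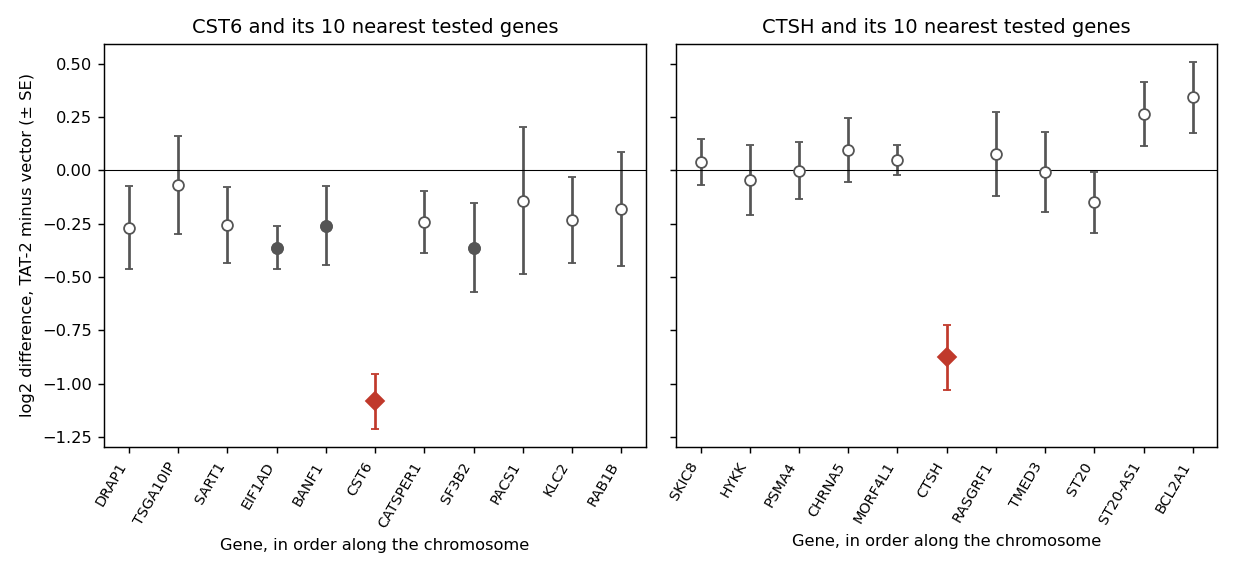
Log2 difference, TAT-2 minus vector, with the SE without the block (y axis), of CST6 and CTSH (red diamonds) and of the 10 nearest tested genes of each in chromosomal order (x axis); filled circles passed the blocked fit. All 10 neighbours of CST6 lie between -0.36 and -0.07, and those of CTSH lie on both sides of 0.

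The genes whose 6 array values were nearest in shape to those of CST6 were ANO1, a chloride channel, GPAT3, an acyltransferase of lipid synthesis, IL1R2, the decoy receptor of interleukin-1, RBM24, an RNA-binding protein, and NRG1, a ligand of ERBB receptors. Likeness was the root mean square distance between log2 values centred on their mean over the 6 arrays, and it ran from 0.0824 for ANO1 to 0.146 for NRG1. ANO1 gave 65.0, 46.0 and 56.6 on TAT-2 and 155, 126 and 146 on vector arrays, a log2 difference of -1.14. The others had log2 differences of -0.94 for GPAT3, -1.26 for IL1R2, -0.93 for RBM24 and -1.16 for NRG1. As the likeness uses the same arrays as the comparison, these differences add no support to that of CST6.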

How the data were processed

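The authors deposited a linear intensity for each probe set of each array. The submitters' processing notes name MAS5, with no version. The mean between percentiles 2 and 98 lay between 99.9854 and 99.9864 on every array, and this scaling was kept. Of 54675 probe sets, 41091 have a single gene symbol in the array annotation, and 41037 of these were matched to RefSeq genes of GRCh38.p14. The 62 control probe sets were left out. Analysis used log2(signal + 16), which understates changes of dim probe sets, and kept those whose mean reached the median over probe sets, a signal of 15.2. This left 27307 (12151 genes, each read from its brightest). Groups were compared in limma 3.58.1 under R 4.3.3, with a variance prior that follows signal and no other covariate, and p-values were adjusted by Benjamini-Hochberg over all tested probe sets at 0.05. The script was tested on simulated data. Having 3 arrays a group limits the precision.

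Replicate numbers were checked for pairing: after subtracting the group means, the correlations between arrays sharing number 1, 2 and 3 were 0.644, 0.386 and 0.250. As each passed 0.1, the numbers were taken as pairs, and the blocked fit is given wherever it alters a call. Of the 6 unmatched pairings, 2 passed 0.1 as well: TAT-2 2 with vector 3 (0.316) and TAT-2 3 with vector 2 (0.2). The 0.316 exceeds the 0.250 of the arrays sharing number 3. The correlations thus set number 1 apart but cannot show that numbers 2 and 3 are pairs. No label explains the numbers, although both arrays numbered 1 have a differently written description. Named genes were the 10 members, up to 4 called genes per list (otherwise the 2 of smallest p), and the 5 nearest in shape to the member with the largest change. Members and lists were chosen with earlier results of these data known. RefSeq promoters covered 6 of the 10 members, and CST6, CSTA, CSTB and CTSB are only named. Protein sequences were not used here.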

Additional observations from a re-analysis of the deposited data

How the results depend on the processing

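CST6, CTSH, CST3 and CTSZ (the brighter probe set where there are several) kept their direction under all alternatives run. The count of member probe sets called, 0 without the block, became 1 after centring array medians, where 0.139% of all tested probe sets were called. It was 3 with the replicate block (5.21% of all), 3 with replicate 1 as a batch term (4.51%), and with the block 2 with no filter (0.76%), 3 after quantile normalization (5.8%), 3 after centring (2.31%), 2 with a pseudocount of 1 (4.75%) and 3 with one of 64 (5.49%). The list genes called, also 0, numbered 7, 4, 2, 8, 1, 6 and 7 in these fits from the replicate block onward, against 6.96%, 6.15%, 1.37%, 7.96%, 2.78%, 6.37% and 7.27% of all tested genes. Leaving out single arrays gave 0 to 1 member probe sets, the 1 being without TAT-2 replicate 1 (0.106% of all), and 0 list genes. With the block and replicate 1, 2 or 3 left out of both groups, 3, 2 and 4 member probe sets (2.91%, 2.41% and 5.1% of all) and 4, 2 and 3 list genes were called. Dropping both replicate 1 arrays with no block, a setting chosen after seeing the data, gave 2 for either count (1.08% of all probe sets and 1.62% of all genes).

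Signs turned only for members near 0 that no fit called. Without replicate 1 of both groups, with or without the block, CSTA was at 0.0140, and the CTSC probe sets at 0.0150, 0.0145 and 0.0489. With the block, the first of these CTSC probe sets was at 0.0374 without replicate 2, CTSL at -0.0205 without replicate 2, CSTB at -0.0798 without replicate 3, and 2 CTSB probe sets at 0.0195 and -0.0165 without replicate 3. The second CTSC probe set was at 0.00803 after centring medians in both fits. Leaving out single arrays gave -0.0485 to 0.116 and -0.195 to 0.0198 for CSTB, -0.0910 to 0.0251 and -0.00224 to 0.149 for 2 CTSB probe sets, -0.0115 to 0.0996 for CTSL, -0.0888 to 0.0603, -0.0958 to 0.103 and -0.101 to 0.0356 for CTSC, and -0.339 to 0.153 for CTSD. The cause of these moves was not tested. Dim probe sets near the filter have signals too low for small differences to be told.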
